A study of Mus musculus with 151 samples.

Results

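The genes described here are 7 metabotropic glutamate receptor genes of the mouse, Grm2 to Grm8, of 55291 genes counted in 151 single cochlear hair cells. They were listed by name. Grm4 was selected on its measured counts in induced outer hair cells (iOHCs), where they were nearly lost. Its difference between those cells and inner hair cells (IHCs) is therefore given as a description, and the other 6 genes were added to show which relatives of Grm4 were counted in the same cells.

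Each library held 1 manually picked, Tdtomato+ cell of a C57BL/6 mouse, and 3 groups were sequenced. The 55 P14_WT IHCs and the 50 P30_WT IHCs came from vGlut3-P2A-iCreER/+; Ai9/+ mice at postnatal days 14 and 30, and the 46 P14_iOHCs came from vGlut3-P2A-iCreER/+; Tbx2 flox/-; Ai9/+ mice at day 14. All 3 groups therefore carried 1 iCreER allele at Slc17a8 (vGlut3), the gene of the vesicular glutamate transporter of IHCs, and the Ai9 reporter, and were treated with tamoxifen soon after birth. The iOHCs carried in addition 1 floxed and 1 germline-deleted allele of Tbx2, a transcription factor gene, and were picked as the smaller of the reporter-positive cells, so larger reporter-positive cells of those mice are not in the group. Neither the number of mice nor the mouse behind each cell is stated in the labels. Each group was therefore treated as 1 sample, and no test was made. The intervals of counts and ratios cover counting error only, and those of shares take the cells of a group as independent draws, so none of them holds the variation between mice. Wild-type outer hair cells (OHCs) were not analysed here.

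Metabotropic glutamate receptors are class C G-protein-coupled receptors that sense glutamate in the synaptic cleft and act through G proteins rather than through an ion channel of their own. Group I, with Grm5, couples to Gq and phospholipase C, whereas group II (Grm2 and Grm3) and group III (Grm4, Grm6, Grm7 and Grm8) couple to Gi/o and lower the activity of adenylyl cyclase. Group III receptors often sit on presynaptic terminals, where they limit transmitter release, and Grm6 is the receptor of ON bipolar cells in the retina. IHCs release glutamate onto the afferent neurons of the cochlea, and OHCs amplify sound by electromotility.

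The total count per cell ran from 4326416 to 25035444 with a median of 15557333, and 51 cells with totals of at most 10267217 were separated by a gap from 100 cells with totals of at least 11814928. Below, these are the lower set and the upper set of totals, and each of them contained cells from all 3 groups. The IHC genes Slc17a8, Otof and Slc7a14 had counts in every cell of both IHC groups. Among the 46 P14_iOHCs, Otof was also counted in all 46 cells, Slc17a8 in 40 and Slc7a14 in 7, at lower median levels than in P14_WT IHCs. Slc26a5, the gene of the OHC motor protein prestin, had counts in all 46 P14_iOHCs, at 142 to 2787 counts per 1000000 counts of the cell (CPM), but in only 2 of 55 P14_WT IHCs (3.64%, 95% exact interval 0.443 to 12.5) and in 2 of 50 P30_WT IHCs. Tbx2 was counted in 45 of 46 P14_iOHCs, with a pooled level of 66.5 CPM, and P14_WT IHCs had 247 CPM. The pooled level of a gene is its summed count over a group divided by the summed totals. Counts over the whole gene do not show whether the floxed exon was removed in a given cell.

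Grm4 encodes mGluR4, a group III receptor. The gene lies on the minus strand of chromosome 17, from 27422387 to 27521403 (GRCm38), with 15 merged exons that span 5977 bases and share none with the exons of another annotated gene. In P14_WT IHCs, Grm4 was counted in 52 of 55 cells (94.5%, 95% exact interval 84.9 to 98.9). Its level ran from 0 to 317 CPM with a median of 50.2 CPM, and the pooled level was 57.4 CPM (56.9 to 57.9) from 45404 counts. In P30_WT IHCs, Grm4 was counted in 40 of 50 cells (80.0%, 66.3 to 90.0). There its level ran from 0 to 288 CPM with a median of 30.5 CPM, and the pooled level was 41.6 CPM (41.1 to 42.1) from 27282 counts. In P14_iOHCs, Grm4 was counted in 4 of 46 cells (8.70%, 2.42 to 20.8). The highest of those 4 cells held 5 counts (0.345 CPM), and the pooled level was 0.0141 CPM (0.00676 to 0.0259) from 10 counts. Grm4 was thus abundant in most IHCs at both ages and was absent or at trace level in every iOHC.

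**Figure D1:**
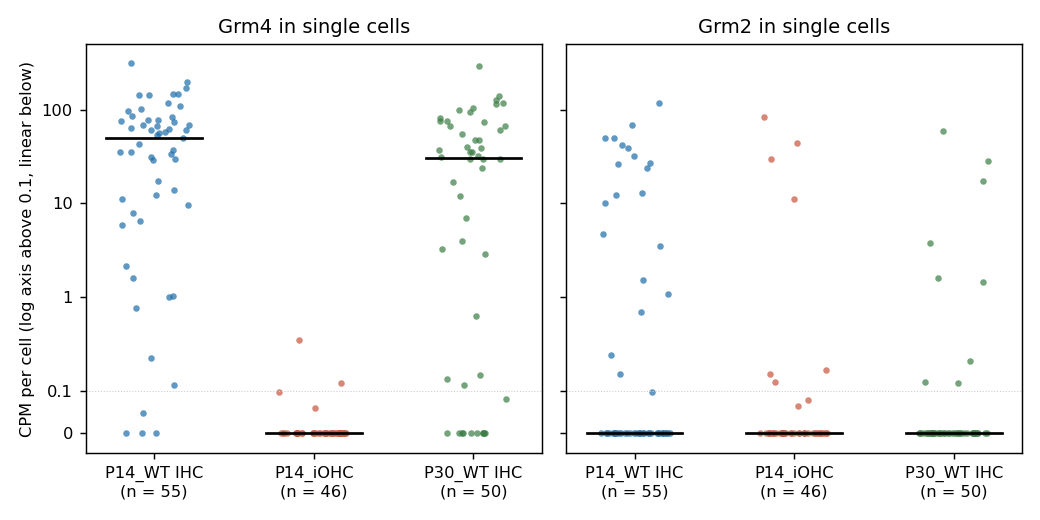
Level in CPM of Grm4 (left) and Grm2 (right) in each cell of the 3 groups, on an axis that is logarithmic above 0.1 CPM and linear below; each point is 1 cell and the black line is the median. Grm4 has medians of 50.2 CPM in P14_WT IHCs and 30.5 CPM in P30_WT IHCs, whereas the 46 P14_iOHCs lie at or below 0.345 CPM.

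The level of Grm4 differed widely among IHCs of 1 age. In P14_WT IHCs, 30 cells lay from 10 to 100 CPM and 10 cells at 100 CPM or above, 8 cells lay from 1 to 10 CPM, 4 cells lay below 1 CPM, and 3 cells had no count. The cell-to-cell SD (60.8 CPM, n = 55 cells) was about as large as the mean of the cells (57.9 CPM). In P30_WT IHCs, 25 cells lay from 10 to 100 CPM, 6 at 100 CPM or above, 4 from 1 to 10 CPM and 5 below 1 CPM, and 10 cells had no count. The SD there was 53.3 CPM (n = 50 cells) around a mean of 42.8 CPM. None of the 46 P14_iOHCs reached 1 CPM, so the iOHCs overlapped only with the low tail of the IHCs. That tail, at or below 0.345 CPM, held cells without a count in both IHC groups.

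The 13 IHCs without a Grm4 count carried the IHC genes Slc17a8, Otof and Slc7a14. In the 10 such P30_WT IHCs, Slc17a8 lay between 733 and 2180 CPM and Otof, the gene of the synaptic protein otoferlin, between 2458 and 4421 CPM. In the 3 such P14_WT IHCs, Slc17a8 lay between 781 and 1252 CPM and Otof between 2429 and 5206 CPM. Slc26a5 had no count in any of the 13 cells. Tbx2 varied more in them, from 3.29 CPM, the lowest of all P30_WT IHCs, to 314 CPM in the 10 at P30 (group median 167 CPM) and from 136 to 322 CPM in the 3 at P14. Most of these cells had high totals, since 7 of the 10 at P30 and 2 of the 3 at P14 belonged to the upper set of totals. Within the upper set, Grm4 was counted in 37 of 39 P14_WT IHCs and 20 of 27 P30_WT IHCs, and within the lower set in 15 of 16 and 20 of 23.

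The 4 P14_iOHCs with a Grm4 count held 5, 2, 1 and 2 counts, and all 4 belonged to the upper set of totals. In the 12 P14_iOHCs of the lower set the gene had no count, which allows a share of up to 25.0% at 3 cells of the set and 26.5% by the exact interval. Among the 4 cells, 1 stood apart by its other genes. It held 2 Grm4 counts and, besides Slc26a5 at 220 CPM, the IHC genes Slc17a8 at 338 CPM, Otof at 1320 CPM and Slc7a14 at 320 CPM, the highest Slc7a14 level among the 46 P14_iOHCs. The same cell held 2 counts each of Grm3 and Grm6. Without it, Grm4 was counted in 6.67% of the P14_iOHCs. OHC genes in IHCs ranged from such traces to clear levels. Ikzf2, an OHC transcription factor gene, was counted in 1 of 55 P14_WT IHCs and in 5 of 50 P30_WT IHCs, at no more than 0.238 CPM, and Slc26a5 reached 4.01 CPM in a P14_WT IHC. Of the other OHC markers, Lbh was counted in 23.6% of P14_WT IHCs at a pooled 4.35 CPM, Ocm in 98.2% at 743 CPM and Sri in all of them at 572 CPM.

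In the comparison of P14_iOHCs with P14_WT IHCs, which addressed how the loss of Tbx2 alters IHCs, the log2 ratio of pooled CPM for Grm4 was -11.99 (95% counting interval -13.05 to -11.11). That ratio was the 7th lowest of 13673 genes that had at least 5 counts in at least 10 cells of both groups together. The rule that picked Grm4 used this contrast, so its place is a description. Among all 13673 genes, 5.16% were over 4-fold lower and 8.86% over 4-fold higher in P14_iOHCs, and the median log2 ratio was 0.09. Only 2 of the 7 genes passed the filter, Grm4 and Grm2, and Grm4 alone was past the 4-fold mark. By rank of pooled CPM within a group, Grm4 stood at 3239 of 55291 genes in P14_WT IHCs, at 4151 in P30_WT IHCs and at 21114 in P14_iOHCs.

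The comparison of P30_WT IHCs with P14_WT IHCs, which shares the P14_WT IHCs with the comparison above, was not used to pick Grm4. The log2 ratio of Grm4 was -0.46 (-0.49 to -0.44), which ranked 3202 from the lowest of 12946 genes. In this comparison 3.29% of the genes were over 4-fold lower and 2.71% over 4-fold higher at P30, and Grm4 was past neither mark. A single P30_WT IHC held 4666 of the 27282 counts (17.1%), and without the cell with the highest count in each group the ratio was -0.60. The ranges of the cells overlapped nearly in full, 0 to 317 CPM at P14 and 0 to 288 CPM at P30.

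Grm2 encodes mGluR2, a group II receptor that also couples to Gi/o. Its gene lies on the minus strand of chromosome 9, from 106643095 to 106656082 (GRCm38). An annotated antisense gene, Gm28111, shares 470 exon bases with it and had 0 counts in all cells. Since the strand setting of the counting is not given, reads of the shared bases cannot be told apart. Grm2 was counted in 21 of 55 P14_WT IHCs (38.2%, 25.4 to 52.3), from 0 to 116 CPM with a median of 0. The pooled level was 9.48 CPM (9.27 to 9.70), and 13 of the 21 cells held 100 counts or more. In P30_WT IHCs Grm2 was counted in 9 of 50 cells (18%, 8.58 to 31.4), from 0 to 59.7 CPM, with a pooled level of 1.42 CPM (1.33 to 1.51). That level was 0.906 CPM without the cell with the highest count, 3.38 CPM in the lower set of totals and 0.667 CPM in the upper set, a wider range than the counting interval. At P14 the lower set gave 15.9 CPM and the upper set 8.32 CPM. Most IHCs therefore had no count of Grm2, and a minority held it at levels in the range of Grm4.

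In P14_iOHCs Grm2 was counted in 9 of 46 cells (19.6%, 9.36 to 33.9), with a pooled level of 3.54 CPM (3.40 to 3.68). Of these, 4 cells held 138, 1257, 411 and 695 counts (11.2, 82.7, 29.9 and 43.5 CPM) and the other 5 cells held 1 to 3 counts. In the same order, these 4 cells had the OHC gene Slc26a5 at 1123, 310, 1383 and 1540 CPM (iOHC median 1033 CPM). Ikzf2, another OHC gene, lay at 115 to 600.3 CPM in them (iOHC median 262 CPM). Of the IHC genes, they had Otof at 245 to 816 CPM, each above the iOHC median of 232 CPM. Slc17a8 was at 0.895, 164, 14.1 and 9.52 CPM in the same order (iOHC median 34.6 CPM). Slc7a14 had no count in them, and its iOHC median was 0. The cell with 1257 counts held 50.1% of the sum, and without it the pooled level was 1.81 CPM. With at least 5 counts required, the shares were 8.70% of P14_iOHCs, 32.7% of P14_WT IHCs and 12.0% of P30_WT IHCs. The share also moved with the set of totals. In the lower set Grm2 was counted in 9 of 16 P14_WT IHCs, 0 of 12 P14_iOHCs and 6 of 23 P30_WT IHCs, and in the upper set in 12 of 39, 9 of 34 and 3 of 27.

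The log2 ratio of Grm2 between P14_iOHCs and P14_WT IHCs was -1.42 (-1.49 to -1.36), within the 4-fold mark, but it rested on few cells. Without the cell with the highest count in each group it was -2.12, past the mark, and in the upper set of totals it was -1.01. In the lower set no iOHC held a count, so the ratio there, -9.09, is only a bound. Between P30_WT IHCs and P14_WT IHCs the log2 ratio of Grm2 was -2.74 (-2.84 to -2.64), over 4-fold lower at P30. It was the 213th lowest of 12946 genes. Under the alternative scalings and cell sets it ran from -2.07 to -3.64, always past the mark. The mean of the cells gave 9.49 CPM (SD 21.5, n = 55 cells) at P14 and 2.26 CPM (SD 9.52, n = 50 cells) at P30, and 3 of the 9 cells with a count at P30 held 100 counts or more.

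Grm4 and Grm2 were also compared within cells. Among P14_WT IHCs, 20 cells held counts of both genes, 32 of Grm4 only, 1 of Grm2 only and 2 of neither. Among P30_WT IHCs, 9 cells held both, 31 Grm4 only, 0 Grm2 only and 10 neither. All 9 P30_WT IHCs with Grm2 therefore also held Grm4, which was counted in 40 of the 50 cells. Among P14_iOHCs, 0 cells held both, 4 Grm4 only, 9 Grm2 only and 33 neither. Neither overlap was tested against what the shares of the 2 genes alone would give. The Grm2 level was above the Grm4 level in CPM in 10 P14_WT IHCs, 1 P30_WT IHC and 9 P14_iOHCs. Across cells, Spearman's rho between the levels of Grm4 and Grm2 was -0.06 over the 55 P14_WT IHCs and 0.19 over the 50 P30_WT IHCs, where both values of a cell come from 1 library.

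**Figure D2:**
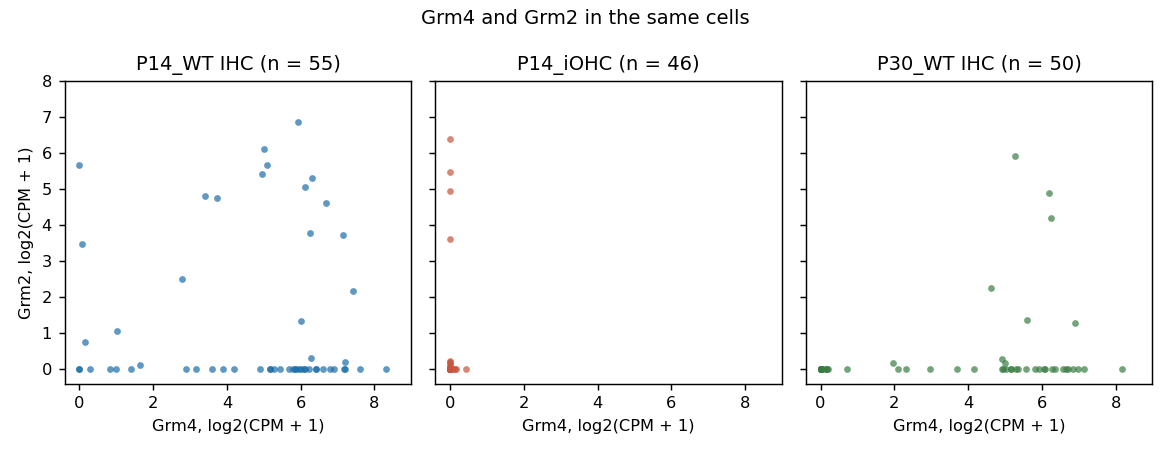
Grm2 against Grm4 in each cell, as log2(CPM + 1), with 1 panel per group and 1 point per cell. Cells with both genes are found in P14_WT IHCs (20 of 55) and P30_WT IHCs (9 of 50), and the P14_iOHCs lie along the axes, with 9 cells on the Grm2 side.

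Per exon length, as length-scaled transcripts per 1000000 (TPM) over each group, Grm4 was the highest of the 7 genes in both IHC groups. In P14_WT IHCs the pooled levels were 23.5 TPM for Grm4 and 4.74 TPM for Grm2, and the other 5 genes were at 0. In P30_WT IHCs Grm4 stood at 16.3 TPM, Grm2 at 0.678 TPM and Grm6 at 0.0678 TPM. In P14_iOHCs Grm2 stood first at 1.59 TPM, and Grm7 (0.0142 TPM) and Grm4 (0.00518 TPM) came after it. The order of the last 2 rests on 27 counts in 1 cell and 10 counts in 4 cells. Of all counts of the 7 genes, Grm4 held 85.8% in P14_WT IHCs, 96.3% in P30_WT IHCs and 0.392% in P14_iOHCs, where Grm2 held 98.4%. No count of any of the 7 genes was found in 2 of 55 P14_WT IHCs, 9 of 50 P30_WT IHCs and 32 of 46 P14_iOHCs.

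The other members of group III were at 0 or at trace level. Grm6 had no count in P14_WT IHCs, 2 counts in 1 P14_iOHC and 103 counts in 4 P30_WT IHCs. In 1 of those 4 cells it held 96 counts (16.9 CPM), which is 93.2% of the sum. Grm7, a presynaptic receptor gene expressed widely in brain, had 27 counts in 1 P14_iOHC (1.26 CPM) and 7 counts over 5 P30_WT IHCs, with at most 3 in a cell. Grm8 had 1 count in each of 2 P30_WT IHCs and none elsewhere. Antisense genes share 599 exon bases with Grm6 (Gm12660) and 130 with Grm7 (Gm20387), and each had 0 counts in all cells.

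Of the remaining members, Grm3, the other group II gene, had 2 counts in 1 P14_iOHC and 6 counts in 1 P30_WT IHC. Grm5, of group I, had 1, 3 and 2 counts in 3 P30_WT IHCs and none in the other groups. Grm3, Grm5, Grm6, Grm7 and Grm8 were thus each counted in 0 of 55 P14_WT IHCs, which allows a share of up to 5.45% at 3 cells of the group and 6.49% by the exact interval. Grm5 and Grm8 were counted in 0 of 46 P14_iOHCs, which allows 6.52% and 7.71%. None of these 5 genes passed the filter in either comparison, so they carry no ratio. Grm4 was therefore not the sole member counted in IHCs, since Grm2 was found beside it in a minority of cells, while the other 5 were not detected at P14 and reached 5 counts in only 3 P30_WT IHCs.

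**Figure D3:**
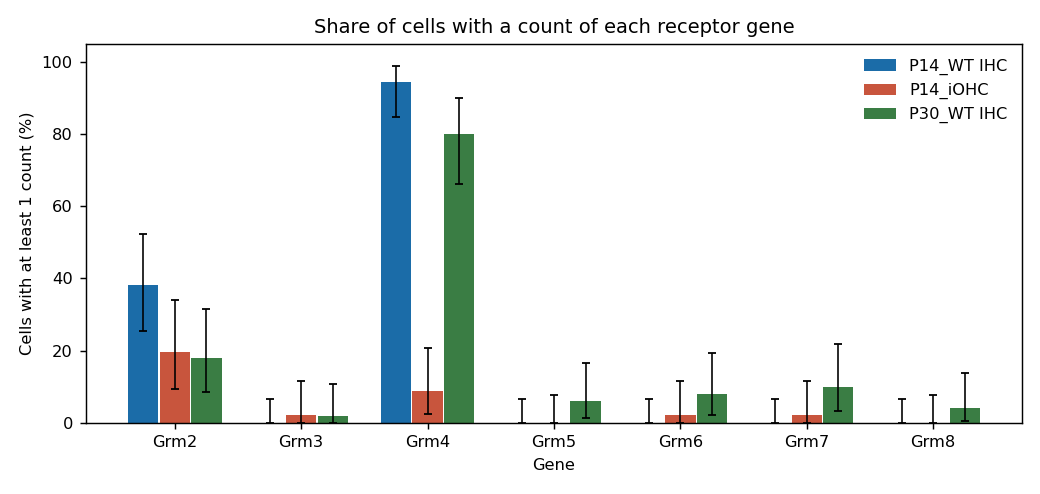
Share of cells with at least 1 count of each of the 7 receptor genes, by group; bars are percentages of the 55, 46 and 50 cells and the error bars are 95% exact binomial intervals. Grm4 stands at 94.5% in P14_WT IHCs, 80.0% in P30_WT IHCs and 8.70% in P14_iOHCs, Grm2 reaches 38.2% and no other gene exceeds 10.0%.

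The genes around the receptors were taken from 8 lists of 126 genes. Of these, 62 passed the filter in the comparison of P14_iOHCs with P14_WT IHCs. In that comparison 6 of the 62 (9.68%) were over 4-fold lower and 11 (17.7%) over 4-fold higher, beside 5.16% and 8.86% of all genes, and their median log2 ratio was -0.08 beside 0.09. Between P30_WT IHCs and P14_WT IHCs 52 passed, and 0 of the 52 were past the 4-fold mark in either direction, with a median of 0.01. Of all genes in that comparison, 3.29% were over 4-fold lower and 2.71% over 4-fold higher. At those shares, few of 52 genes would be past the mark. The values below are for P14_iOHCs against P14_WT IHCs unless stated otherwise.

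Among the other class C receptors, 6 of 14 passed the filter, 1 was over 4-fold lower and 2 over 4-fold higher. Gpr158, an orphan relative of the family that binds glycine, was the lower one. It was counted in 22 of 55 P14_WT IHCs from 0 to 273 CPM, in 13 of 50 P30_WT IHCs from 0 to 101 CPM, and in 1 of 46 P14_iOHCs, with 7 counts. The log2 ratio of pooled CPM was -11.23 (-12.54 to -10.18), so Gpr158, like Grm4, was at trace level in the iOHCs, although it was counted in fewer IHCs. Gabbr1, a subunit of the GABA-B receptor, was counted in 58.7% of P14_iOHCs and 85.5% of P14_WT IHCs, with a log2 ratio of -0.95. Gprc5c and Gprc5b, orphan receptors, were the 2 higher genes, and Gprc5c was at 10.1 CPM against 2.25 CPM (log2 ratio 2.17). It was counted in 7.27% of P14_WT IHCs, and the ratio was 2.76 without the cell with the highest count in each group and 6.01 in the lower set of totals.

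Metabotropic receptors of groups II and III act through Gi/o alpha subunits and the beta-gamma subunits bound to them. Of 20 genes for Gi/o and beta-gamma subunits, 13 passed, 0 were over 4-fold lower and 1 was over 4-fold higher. Gnai2, a Gi alpha subunit, was counted in every cell of all 3 groups, at 136 CPM in P14_iOHCs, 152 CPM in P14_WT IHCs and 132 CPM in P30_WT IHCs. Gnb1, a beta subunit, was at 331, 344 and 328 CPM in the same order. The gamma subunit gene Gng5 was at 498 CPM in P14_iOHCs and 175 CPM in P14_WT IHCs (log2 ratio 1.51), and Gng12, the higher gene, at 15.5 CPM against 3.09 CPM (2.33).

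Adenylyl cyclases include enzymes that Gi inhibits. Of 9 adenylyl cyclase genes, 7 passed and 1 was over 4-fold lower. This was Adcy1, a cyclase that calcium and calmodulin stimulate. It was counted in 16 of 55 P14_WT IHCs, 17 of 50 P30_WT IHCs and 2 of 46 P14_iOHCs, where it held 6 counts, and its log2 ratio was -9.60 (-11.04 to -8.47). Adcy8, another calcium-stimulated cyclase, was at 32.4 CPM in P14_iOHCs and 25.3 CPM in P14_WT IHCs, Adcy2 at 16.4 CPM against 40.3 CPM and Adcy9 at 16.1 CPM against 21.5 CPM. The median log2 ratio of the 7 genes was -1.25.

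Of 13 Gq pathway genes, the route of group I receptors, 8 passed and 2 were over 4-fold higher. Itpr1, a calcium channel of the endoplasmic reticulum, was counted in 16 of 46 P14_iOHCs and 2 of 55 P14_WT IHCs, at 13.2 CPM against 0.0619 CPM. Gna14, a Gq-class alpha subunit, was at 24.9 CPM against 2.28 CPM. Gnaq, which encodes Gq itself, was at 47.9 CPM against 71.0 CPM and Prkca, a protein kinase C, at 154 CPM in both groups. Plcb3, a phospholipase C, was at 67.7 CPM against 49.2 CPM.

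Regulators of G-protein signalling (RGS) shorten signals by speeding the hydrolysis of GTP. Of 19 RGS genes 4 passed, 0 were over 4-fold lower and 2 over 4-fold higher. Rgs11 was at 268 CPM in P14_iOHCs (0 to 796 CPM, median 199.5), 426 CPM in P14_WT IHCs and 396 CPM in P30_WT IHCs, and Rgs12 was at 113, 103 and 98.4 CPM in the same order. Rgs2 was higher at 36.2 CPM against 2.36 CPM (log2 ratio 3.94), and at 4.73 without the cell with the highest count in each group. Rgs6 was higher at 9.81 CPM against 1.28 CPM (2.94), but its level in P14_WT IHCs came from 1 of 55 cells. Without that cell and the top iOHC the ratio, 10.98, is only a bound.

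Of 19 genes for proteins listed as partners of the receptors, 13 passed, 2 were over 4-fold lower and 1 was over 4-fold higher. Homer2, which encodes a postsynaptic scaffold that binds group I receptors, was at 607 CPM in P14_iOHCs and 526 CPM in P14_WT IHCs. Cabp1, a calcium-binding protein gene, was counted in 96.4% of P14_WT IHCs and 26.1% of P14_iOHCs, at 29.6 CPM against 4.65 CPM (-2.67). It was within the 4-fold mark in the lower set of totals (-1.87). Grip1, a scaffold gene, was the other lower one at a low level, 1.32 CPM against 0.190 CPM. Arrb1, the gene of an arrestin, was higher at 20.6 CPM against 3.57 CPM.

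Ionotropic glutamate receptors are ion channels opened by glutamate. Of 18 genes 4 passed, 1 was over 4-fold lower and 1 over 4-fold higher. Grin2c, a subunit of NMDA receptors, was counted in 52 of 55 P14_WT IHCs, as many as Grm4, in 48 of 50 P30_WT IHCs and in 11 of 46 P14_iOHCs. Its pooled level was 59.0 CPM in P14_WT IHCs and 8.97 CPM in P14_iOHCs (-2.72), so more of it than of Grm4 remained. Grik5, a kainate receptor subunit, was the higher gene at 11.2 CPM against 2.69 CPM (2.06). It was within the 4-fold mark under 4 alternatives, at log2 ratios of 1.30 to 1.90.

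Of 14 genes of glutamate transport and metabolism 7 passed, 1 was over 4-fold lower and 2 over 4-fold higher. Slc17a8, which loads glutamate into the synaptic vesicles of IHCs, was at 114 CPM in P14_iOHCs (0 to 935 CPM, median 34.6) and 1215 CPM in P14_WT IHCs (470 to 2138 CPM, median 1191), with a log2 ratio of -3.42. It was counted in 40 of 46 P14_iOHCs, against 4 of 46 for Grm4. Slc1a3, a glutamate uptake transporter of supporting cells and glia, was higher at 180 CPM against 25.6 CPM, and Glul, which encodes glutamine synthetase, at 19.4 CPM against 4.50 CPM.

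Markers of supporting cells and glia were mostly higher in P14_iOHCs, whereas those of neurons, fibroblasts, blood and immune cells had no shared rise. Of all genes, 5.16% were over 4-fold lower and 8.86% over 4-fold higher. Of 5 blood markers 4 passed and 0 were past the mark. Of 14 supporting-cell markers, which include Slc1a3, 11 passed and 8 were over 4-fold higher in P14_iOHCs. Their summed level ran from 2226 to 20272 CPM in P14_iOHCs (median 6095) and from 3800.0 to 9276 CPM in P14_WT IHCs (median 5425), and Prox1 was at 0 in both groups. Fbxo2, at 5552 and 5581 CPM, carried most of that sum. The other 13 markers summed to 0 to 10430 CPM in P14_iOHCs (median 843) and 0 to 2138 CPM in P14_WT IHCs (median 7.30). Of 7 glial markers 4 passed and 3 were over 4-fold higher, with summed medians of 53.8 and 2.44 CPM and ranges of 0 to 292 and 0 to 224 CPM. The summed level of 8 neuronal markers ran from 0 to 797 CPM in P14_iOHCs (median 286) and from 156 to 872 CPM in P14_WT IHCs (median 363), and 0 of the 4 that passed were past the mark. Prph was at 0 in P14_WT IHCs and Thy1 in P14_iOHCs. Of 7 fibroblast markers 5 passed and 1, Lum, was over 4-fold higher (361 CPM against 61.7 CPM), and their summed level ran from 0 to 4594 CPM in P14_iOHCs (median 116) and from 0 to 865 CPM in P14_WT IHCs (median 90.9), with Col3a1 at 0 in the latter. Of 7 immune markers 3 passed, Csf1r was over 4-fold higher and C1qb, a complement gene, over 4-fold lower. The pooled level of Csf1r was 1.69 CPM against 0.373 CPM, but it was counted in fewer of the cells. Its shares were 8.70% of P14_iOHCs and 27.3% of P14_WT IHCs. C1qb was counted in 69.1% of P14_WT IHCs, 8.70% of P14_iOHCs and 6% of P30_WT IHCs. Unlike Grm4, it was thus also low in P30_WT IHCs. There its log2 ratio to P14_WT IHCs was -3.13, beside -0.46 for Grm4. The summed immune medians were 16.7, 0 and 0.0355 CPM in P14_WT IHCs, P14_iOHCs and P30_WT IHCs, with ranges of 0 to 133, 0 to 164 and 0 to 115 CPM. The 14 P14_WT IHCs that lay over 3 median absolute deviations from the group in total, detected genes or supporting-cell marker level were left out. Without them, the log2 ratios of the 10 named higher genes ran from 1.74 (Grik5) to 11.51 (Rgs2), with Slc1a3 at 6.91 and Gprc5c at 9.15. For Gng12 (11.51), Itpr1 (11.28) and Rgs6 (10.85), the P14_WT IHC sum was then at or under the floor of 3 counts. Those ratios are read only as bounds. The same rule left out 0 of the 46 P14_iOHCs, so only the P14_WT IHC side changed. It also used the supporting-cell markers, which include Slc1a3, so these ratios are no independent check. The part of other cell types in the values above was not tested.

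**Figure D4:**
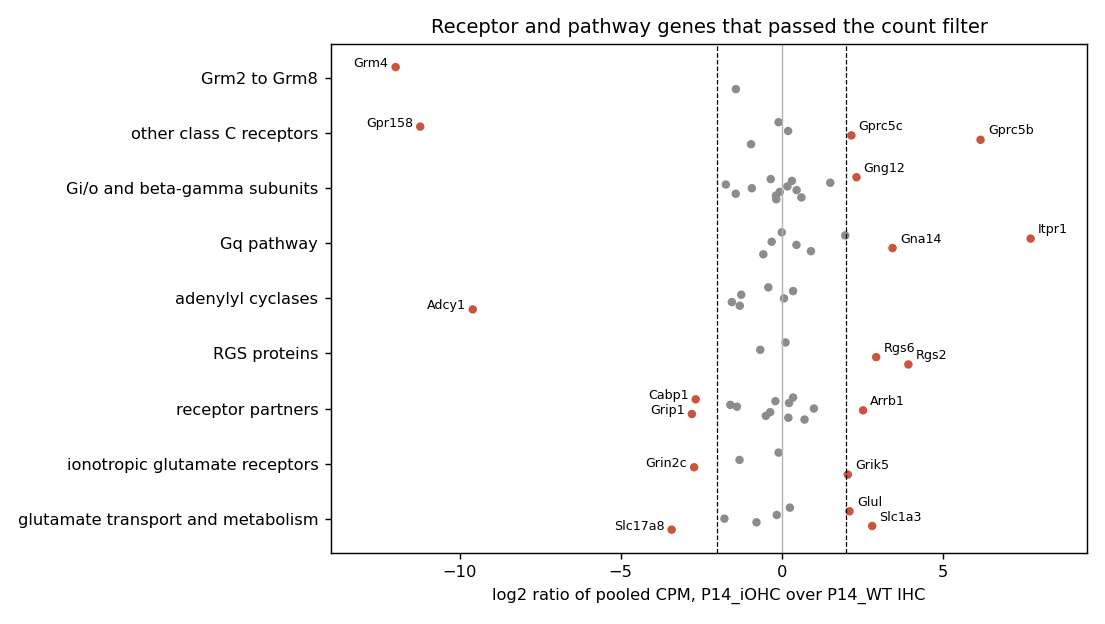
The log2 ratio of pooled CPM, P14_iOHC over P14_WT IHC, for the receptor and pathway genes that passed the count filter, in 1 row per list; each point is a gene, red and named where it is past the 4-fold mark (dashed lines). Grm4 (-11.99), Gpr158 (-11.23) and Adcy1 (-9.60) lie far to the left. The Gi/o, Gq and RGS rows, of 13, 8 and 4 genes, have 0 past the mark on that side, beside 5.16% of all genes.

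Some other genes had a pattern over the 3 groups like that of Grm4. The measure was the summed absolute difference between the shares of cells with a count in the 3 groups and those of Grm4. The nearest was Gm10605, counted in 92.7% of P14_WT IHCs, 6.52% of P14_iOHCs and 88.0% of P30_WT IHCs, a summed difference of 12.0 points. Rtn4rl2, a relative of the Nogo receptor gene, was counted in 94.5%, 10.9% and 92.0%, and Fat4, a large cadherin gene, in 92.7%, 10.9% and 92.0%. Ntrk2, which encodes the neurotrophin receptor TrkB, was counted in 87.3%, 10.9% and 70.0% of the cells. The other 4 of the nearest 8 were 1700029N11Rik, Gm36684, Cacna2d2 and Pex5l, and 5 genes lay within 10 points of Grm4 in each of the 3 shares. Pooled levels differed from Grm4 more than the shares did. Rtn4rl2 kept 5.39 CPM in P14_iOHCs, and Gm36684 was at 0.541 CPM in P14_WT IHCs and 1.15 CPM in P14_iOHCs.

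**Figure D5:**
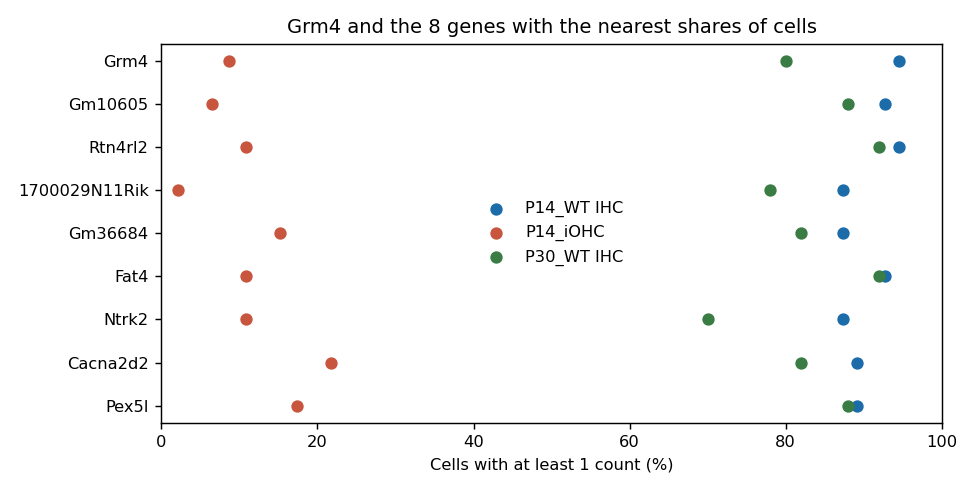
Share of cells with at least 1 count in each of the 3 groups, for Grm4 and the 8 genes whose shares were nearest to its own; each point is the percentage of cells in a group. Gm10605 stands at 92.7%, 6.52% and 88.0% in P14_WT IHCs, P14_iOHCs and P30_WT IHCs, beside 94.5%, 8.70% and 80.0% for Grm4.

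Likeness to Grm4 was also measured across the cells of 1 group. Among 8180 genes counted in at least 50% of the P14_WT IHCs, the highest Spearman's rho with Grm4 over those 55 cells was 0.47 for Plppr3, and the median over the genes was -0.02. The next were Drg2 (0.45), Mapk8ip2 (0.43), Utrn (0.41) and Myo3a (0.40), the last an unconventional myosin of hair cell stereocilia. Over the 50 P30_WT IHCs the same 5 genes, in that order, had rho values of -0.18, 0.14, -0.10, 0.10 and 0.26. The rho of Grm4 with Tbx2 was -0.08 over P14_WT IHCs and 0.16 over P30_WT IHCs, and with Slc17a8 0.13 and 0.14. With the total count it was -0.00 and -0.12. All values of a cell come from 1 library and share its depth, and these weak values describe the cells at hand.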

How the data were processed

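Whole-transcriptome libraries of 151 single cells (55 P14_WT IHCs, 46 P14_iOHCs, 50 P30_WT IHCs) were made by the authors with a Smart-Seq HT kit without molecular identifiers. The authors aligned the paired-end reads with HISAT2 2.1.0 to GRCm38/mm10 and counted reads per gene with HTSeq 0.10.0. The deposited values are these raw counts for 55291 genes. The sources used here do not state the annotation release, the strand setting or how multi-mapping reads were handled. Groups were taken from the sample labels.

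For each gene, counts were summed over the cells of a group and divided by the summed totals (pooled CPM), with exact Poisson intervals. Shares of cells have Clopper-Pearson intervals, and a ratio has an exact conditional counting interval (95%, scipy 1.17.1). PCR reads are not independent molecules, so intervals of counts and ratios cover counting error only. A sum under 3 counts was set to 3, and the ratio is then a bound. The limit that a count of 0 allows for a share is 3 cells of the group. At 3 counts, the floor of a single cell was 0.120 to 0.693 CPM. Genes were compared where at least 5 counts were found in at least 10 cells of the 2 groups, and the mark was 4-fold. TPM used merged exon lengths of GENCODE M21, which were found for 53292 of the genes. Alternatives were other scalings (edgeR 4.0.16 TMM, DESeq2 1.42.0 size factors, totals without mitochondrial genes), the mean over cells, TPM, left-out cells, the 2 sets of totals, thinning, the count that makes a cell positive, no filter and a 2-fold mark. The calculation of the ratios and of the genes past the mark was tested on simulated data, and that of the intervals was not. No 2 of the libraries were identical.

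All 7 members were named, with Tbx2 and marker genes as checks of the labels. In each list the 3 genes with the highest pooled CPM were named, and up to 4 per direction with the largest ratio past the mark and at least 5 CPM in the higher group. Gprc5b, Grip1, Fbxo2, Lum, Csf1r and C1qb fall outside this rule and were named after their values were seen. Some genes that the rule names are not reported here. The 8 genes nearest to Grm4 in shares and the 5 highest in Spearman's rho of log2(CPM + 1) were taken. Members and lists were chosen with earlier results of these data known.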

Additional observations from a re-analysis of the deposited data

How the results depend on the processing

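No paired analysis was possible because the results come from no test and the cell numbers only name cells. The pooled Grm4 level in P14_WT IHCs was 55.97 CPM with TMM, 54.6 with DESeq2 size factors, 61.0 without mitochondrial genes, 57.9 as the mean of the cells, 53.5 without the top cell, 51.6 and 58.4 in the lower and upper set of totals, and 23.5 in TPM. In P30_WT IHCs it was 42.2 CPM with TMM, 45.3 without mitochondrial genes, 42.8 as the mean, 35.4 without the top cell, 43.7 and 40.8 in the lower and upper set, 32.2 without the 13 cells over 3 median absolute deviations from the group, and 16.3 in TPM. In P14_iOHCs it was 0 in the lower set and 0.00518 in TPM. The Grm4 ratio of P14_iOHCs to P14_WT IHCs ran from -10.79 (lower set, a bound) to -12.86 (log2, without the top cells), always past 4-fold. The P30 to P14 ratio of Grm4 was -0.41 with TMM, -0.40 with DESeq2 size factors, -0.43 without mitochondrial genes, -0.44 as the mean, -0.53 in TPM, -0.60 without the top cells, -0.84 without the cells over 3 deviations, and -0.24 and -0.52 in the lower and upper set, always within 4-fold. The share of P14_iOHCs with Grm4 was 2.17% at 5 or more counts, 4.35% after thinning each cell to 4326416 counts, and 0% in the lower set.

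With no filter, 3977 genes were over 4-fold lower and 5187 higher in P14_iOHCs, and 3909 lower and 3278 higher at P30. With a 2-fold mark the counts were 1782 and 2596, and 1413 and 1289. In the lower set 359 genes were higher in P14_iOHCs and 231 at P30. Of 386 alternative ratios of the other named genes, 376 had the sign given and 10 the other, all 10 for genes whose log2 ratio was at most 0.57 in size. Of 179 past 4-fold, 172 stayed past it, and the other 7 were of Cabp1, Grik5 and Glul (Glul at 1.95). The causes were not tested. The main limits are that the mice behind the cells are unknown, that a gene without a count in a cell can be below the floor of that library, and that Grm2 rests on few cells. The requirement of 5 or more counts, the sets of totals for Grm2, the omission of 1 iOHC and the supporting-cell sum without Fbxo2 were added after the data were seen.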
